A study of Mus musculus with 6 samples.

Results

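*Cxcl9*, *Cxcl10*, and *Cxcl11* encode the ligands of the chemokine receptor CXCR3, and *Cxcl16* encodes the ligand of CXCR6. These 4 genes, of 34787 gene names on the array, were followed in mouse bone marrow–derived macrophages (BMDMs) with and without LPS and an inhibitor of the deubiquitinase USP7. They were picked by gene name, with earlier results of these data known. They were read by 7 of 55681 probes, with 2 probes each for *Cxcl9*, *Cxcl10*, and *Cxcl11* and 1 probe for *Cxcl16*, and every probe was a single spot on each array. All 4 genes entered the test, and none was lost to a filter.

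BMDMs were grown from the marrow of wild type female C57BL/6 mice, aged 6 to 8 weeks in the labels and older in the methods of the study, for 7 days with L929-conditioned medium. The 3 groups were untreated cells, cells given 100 ng/ml LPS for 4 h, and cells given 10 μM HBX41,108, which blocks the catalytic activity of USP7, for 30 min before the same LPS (LPS+inhibitor). Each group was measured on 2 one-color Agilent arrays from independent experiments, 6 in all, and so few arrays limit how precise any value here can be. One field of the labels gives the LPS dose per μl and the series description per ml. Neither says whether cells with LPS alone received the solvent of the inhibitor, so the effects of solvent and inhibitor cannot be told apart. No array had the inhibitor without LPS. The 6 arrays lay on 1 slide with each group in a row of its own, so slide row and treatment cannot be told apart either. Of 59305 spots, 25002 to 27467 were well above background on each array. In bulk RNA, fewer expressing cells and less RNA per cell cannot be told apart.

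Chemokines are small secreted proteins that guide leukocytes through G protein–coupled receptors. CXCL9, CXCL10, and CXCL11 draw activated T cells and NK cells that carry CXCR3. *Cxcl9* is known as a target of interferon γ, whereas *Cxcl10* also responds to type I interferon and to NF-κB downstream of TLR4. CXCL16 differs from these because it is made as a membrane protein, acts as a scavenger receptor, and is released as a soluble chemokine by the proteases ADAM10 and ADAM17. In RefSeq, *Cxcl9*, *Cxcl10*, and *Cxcl16* are classed as protein coding and *Cxcl11* as a transcribed pseudogene in the C57BL/6J assembly, which is the strain background used here.

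Promoter windows were read from RefSeq (GRCm38.p6) for the 2 members that the table holds, *Cxcl9* and *Cxcl10*. They are shown because both genes rose with LPS, while their measured change with the inhibitor was not of the same size. *Cxcl11* and *Cxcl16* were not in the table. The 250 bases before each annotated start follow from 5′ to 3′ on the minus strand, chr5:92328080-92328329 for *Cxcl9* and chr5:92348890-92349139 for *Cxcl10*. Capitals mark a match to an interferon-stimulated response element (ISRE) core or to the NF-κB consensus.
Cxcl9: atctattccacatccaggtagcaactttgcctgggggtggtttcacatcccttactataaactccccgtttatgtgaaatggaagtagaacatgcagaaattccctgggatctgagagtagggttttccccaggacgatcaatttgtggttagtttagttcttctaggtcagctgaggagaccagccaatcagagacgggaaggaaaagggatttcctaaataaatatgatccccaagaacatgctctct
Cxcl10: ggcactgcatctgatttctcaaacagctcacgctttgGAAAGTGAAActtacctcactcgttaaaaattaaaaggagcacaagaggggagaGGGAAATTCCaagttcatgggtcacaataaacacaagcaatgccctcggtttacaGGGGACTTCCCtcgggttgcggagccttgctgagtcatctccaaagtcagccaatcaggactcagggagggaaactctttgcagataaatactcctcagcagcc

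The motifs searched, on both strands, were the ISRE core (GAAA, any 2 bases, GAAA), the interferon γ-activated GAS motif TTCNNNGAA, the NF-κB consensus, and the AP-1 motif TGANTCA. The *Cxcl10* window held an ISRE core from −213 to −204 relative to the gene start, an NF-κB match from −159 to −150, a pair of overlapping NF-κB matches from −104 to −94, and an AP-1 match from −74 to −68, which is left in lower case. The *Cxcl9* window held 0 of these 4 motifs upstream of the start. Of the 32851 windows of 250 bases in the table, 2.98% held an ISRE core, 7.02% a GAS motif, 7.25% an NF-κB match, and 6.75% an AP-1 motif. A match is a description of letters, and the missing matches in *Cxcl9* say only that these letters are not in this window.

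**Figure D1:**
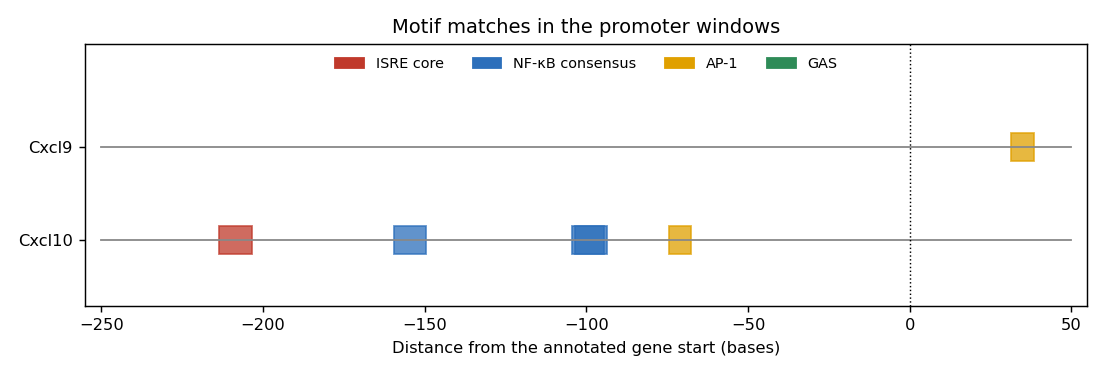
Motif matches in the RefSeq windows of *Cxcl9* and *Cxcl10*, from 250 bases before to 50 bases after the annotated gene start, with distance from the start in bases on the x axis. *Cxcl10* has an ISRE core, NF-κB, and AP-1 matches before the start, and the single match of *Cxcl9* is an AP-1 motif after it.

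LPS raised *Cxcl9* from below the background limit, raised *Cxcl10* from a level that probe 1 could measure, and raised *Cxcl16* by less than 2-fold. *Cxcl11*, which was above background in untreated cells already, did not pass the test. Signals are given as log2 of the background-corrected intensity after quantile normalization, so a difference of 1 is a factor of 2, and levels are compared between arrays for 1 probe, never between probes. The tests are limma adjusted p values over all 55680 probes tested, with 0.05 as the threshold. By the brightest probe of each gene, 3 of 4 members were called higher with LPS and 0 of 4 lower, where 7.98% of all 34786 genes tested were called higher and 12.8% lower. The median LPS difference of the 4 members was 4.91 on the log2 scale, and that of all genes was 0.0.

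Probe 1 of *Cxcl9* (mm9 chr5:92752191-92752250, minus strand) read 3.79 and 2.43 in unstimulated cells, 13.39 and 13.99 after LPS, and 7.83 and 9.88 after inhibitor plus LPS. Neither untreated array was well above background, and the 3 groups did not overlap. Against the lowest signal of any probe well above background on the same array, *Cxcl9* was at least 877-fold higher with LPS (log2 difference 10.58, standard error 0.89, adjusted p = 0.00659). The second *Cxcl9* probe (chr5:92752796-92752855) had the same order of groups. It read 3.74 and 2.01 in unstimulated cells, 12.22 and 12.65 after LPS, and 6.50 and 8.81 after inhibitor plus LPS. Its LPS change was at least 369-fold (log2 difference 9.56, standard error 1.03, adjusted p = 0.0104). These bounds hold for the processed signal and for that limit only. The limit is the lowest over all probes and was not set for each probe, and a higher limit would lower the bounds. The fitted fold, over an untreated group below background, was 590 for probe 1 and 226 for probe 2 in the authors' normalized table, and 183 and 79.0 with normexp background correction.

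Probe 1 of *Cxcl10* (chr5:92775781-92775840, minus strand) was above background on all arrays. It read 9.78 and 8.93 in unstimulated cells, 18.33 and 18.19 after LPS, and 17.81 and 18.19 after inhibitor plus LPS. The LPS difference was 8.91 (standard error 0.34, adjusted p = 0.0028), a 480-fold rise. Probe 2 (chr5:92776616-92776675), designed on a spleen cDNA clone, read 1.97 and 1.99 in unstimulated cells, where it was not well above background, 11.59 and 11.09 after LPS, and 11.04 and 10.54 after inhibitor plus LPS. It was at least 172-fold higher with LPS (log2 difference 9.36, standard error 0.25, adjusted p = 0.00249), against a fitted fold of 138 in the authors' table and 40.6 with normexp.

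*Cxcl16* (chr11:70267780-70267839, minus strand) read 12.65 and 12.57 in unstimulated cells, 13.63 and 13.43 after LPS, and 12.53 and 12.44 after inhibitor plus LPS. The LPS arrays lay above the other 4 arrays, and the values of each group were within 0.20 of each other. *Cxcl16* thus had a clear level in resting macrophages and rose 1.89-fold with LPS (log2 difference 0.92, standard error 0.099, adjusted p = 0.0104). This call was lost without untreated replicate 1 (adjusted p = 0.0557) or 2 (adjusted p = 0.0665), while the difference stayed at 0.96 and 0.88.

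Probe 1 of *Cxcl11* (chr5:92788567-92788626, minus strand) read 17.33 and 17.13 in unstimulated cells, 16.77 and 16.85 after LPS, and 17.64 and 17.02 after inhibitor plus LPS. It was above background on all arrays, the untreated ones included. The LPS difference of −0.42 (standard error 0.24, 95% interval −1.08 to 0.23, adjusted p = 0.376) did not pass the threshold. Probe 2 (chr5:92788640-92788699) read 10.58 and 10.45 in unstimulated cells, 10.03 and 10.28 after LPS, and 11.42 and 10.37 after inhibitor plus LPS. Its LPS difference of −0.36 (95% interval −1.42 to 0.70, adjusted p = 0.656) did not pass either.

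Probe 1 of *Cxcl11* is also the member probe that shares the most sequence with probes of other genes. A run of at least 16 bases of it occurs in 11 probes of 11 other genes, a count that 0.878% of all probes reach, whereas 83.9% share no such run. The most shared run, found in 7 of those probes, is shown because it stands in so many probes of other genes.
Shared run: gctacacagagaaacc

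Such bases occur in B1 elements, a family of short interspersed repeats of the mouse genome, although no repeat annotation was used here. Of the 11 probes, 10 were above background on all 6 arrays. Their median signal was 15.97 in untreated cells and 15.33 with LPS, and their median difference was −0.59 with LPS and 0.67 with the inhibitor on the log2 scale. *Cxcl11* probe 2 and *Cxcl10* probe 2 each shared a run with 1 probe of another gene, and the *Cxcl9* probes, *Cxcl10* probe 1, and *Cxcl16* shared none. The probe sharing a run with *Cxcl11* probe 2 was bright, at 17.09 before LPS, and above background on all 6 arrays. Its LPS difference was −0.76 and its inhibitor difference 1.57, in the directions of *Cxcl11* probe 2 itself (−0.36 and 0.74). The probe sharing a run with *Cxcl10* probe 2 read 2.28 before LPS and was not above background on all 6 arrays. The part of shared sequence in the *Cxcl11* signal was not tested. The length of the run was chosen after the sequences had been seen.

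**Figure D2:**
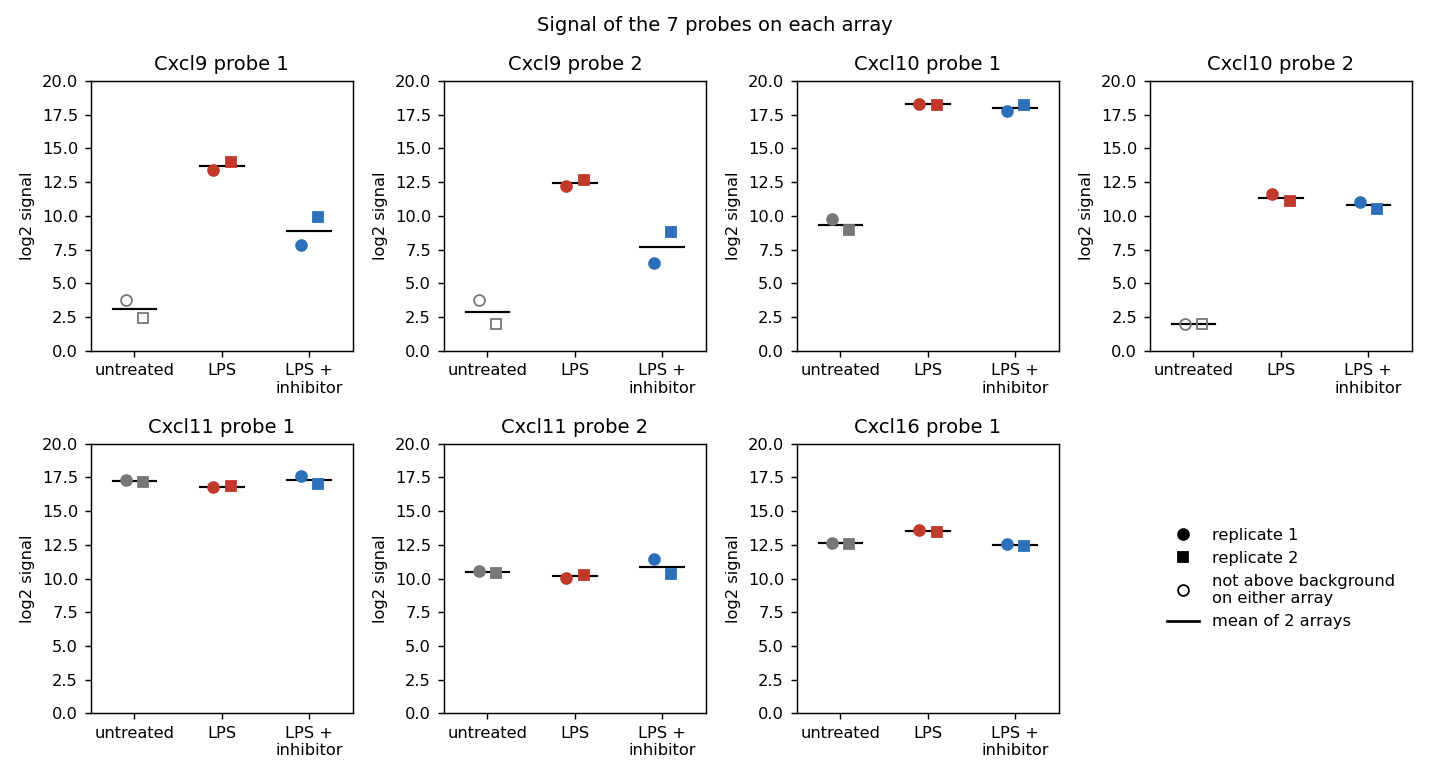
Log2 signal of the 7 probes on each of the 6 arrays, with circles for replicate 1, squares for replicate 2, lines for the mean of 2 arrays, and open symbols where neither array of the group was well above background. *Cxcl9* lies between LPS and untreated cells with the inhibitor, *Cxcl10* probe 1 stays near 18 in both stimulated groups, *Cxcl11* probe 1 stays near 17 in all groups, and *Cxcl16* with the inhibitor lies just below its untreated values.

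The next comparison asked what the USP7 inhibitor did to LPS-stimulated cells. *Cxcl16* fell to near its resting level, *Cxcl9* was far lower on both inhibitor arrays without passing the threshold, and neither *Cxcl10* nor *Cxcl11* passed it. Of the 4 members, 1 was called lower (*Cxcl16*) and 0 higher, where 4.27% of all genes tested were called lower and 5.52% higher. The median difference of the members was −0.65, and that of all genes was 0.0.

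*Cxcl16* was 2.06-fold lower with LPS+inhibitor than with LPS alone (log2 difference −1.04, standard error 0.099, adjusted p = 0.019). What was left was 91.8% of the untreated level, with a log2 difference from untreated cells of −0.12 (95% interval −0.40 to 0.15, adjusted p = 0.565). The call against LPS was lost when only the LPS and LPS+inhibitor arrays were fitted (adjusted p = 0.0682), without either untreated array (0.0682), and without inhibitor replicate 1 (0.0587) or 2 (0.0511). The difference itself stayed between −1.28 and −0.94 under every setting run.

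*Cxcl9* with the inhibitor stood at 3.5% of its LPS level, a 28.5-fold difference by probe 1 (log2 difference −4.83, standard error 0.89, 95% interval before adjustment −7.30 to −2.37, adjusted p = 0.057). This did not pass the threshold, and neither did probe 2 (log2 difference −4.79, standard error 1.03, adjusted p = 0.0772). The inhibitor arrays were further apart than those of the other groups, at 7.83 and 9.88 for probe 1, and both lay more than 3 log2 units below the LPS arrays. Probe 1 passed with normexp background correction (adjusted p = 0.0031), with the authors' normalized values (0.0125), with dim probes left out (0.0113), and with a prior that follows the signal (0.0398). Over all alternatives its adjusted p ranged from 0.0031 to 0.189 and its difference from −5.86 to −3.81. Inhibitor-treated cells still held *Cxcl9* RNA. Probe 1 was at least 30.7-fold above untreated cells (log2 difference 5.74, standard error 0.89, adjusted p = 0.03), and probe 2 at least 13.4-fold (adjusted p = 0.0632), which did not pass. The fitted folds of the 2 probes over untreated cells were lower in the authors' table, at 21.3 and 9.32, and with normexp, at 7.68 and 4.11.

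*Cxcl10* with the inhibitor stood at 83.5% of its LPS level by probe 1 and at 68.4% by probe 2. The inhibitor difference of probe 1 was −0.26 (standard error 0.34, 95% interval −1.19 to 0.67, adjusted p = 0.746), and its values overlapped between LPS and LPS+inhibitor. LPS replicate 2 and inhibitor replicate 2 have the same normalized value because the probe had rank 15 on both arrays, and quantile normalization assigns values by rank. The signals before normalization were 320149 and 335729 with LPS and 199721 and 289178 with LPS+inhibitor. With 75th percentile scaling, which does not use ranks, the difference was −0.37. Probe 2, on which the LPS and LPS+inhibitor arrays did not overlap, had a difference of −0.55 (95% interval −1.25 to 0.15, adjusted p = 0.335). Both probes were called higher in inhibitor-treated than in untreated cells, by 8.65 on the log2 scale for probe 1 (adjusted p = 0.00454) and by at least 118-fold for probe 2 (adjusted p = 0.00384), whose fitted fold was 95.1 in the authors' table and 28.5 with normexp.

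*Cxcl11* had a log2 difference of 0.53 by probe 1 (standard error 0.24, adjusted p = 0.321) and of 0.74 by probe 2 (standard error 0.38, adjusted p = 0.402). Neither passed, and for both probes inhibitor replicate 1 lay further above the LPS arrays than replicate 2. Without inhibitor replicate 2, probe 2 passed (log2 difference 1.26, adjusted p = 0.0489).

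The levels can be put in order over the 3 groups. *Cxcl9* was highest with LPS, then with LPS+inhibitor, then in untreated cells, and the first step did not pass the threshold while the second did by probe 1. *Cxcl10* was far above untreated cells in both stimulated groups, which overlapped by probe 1, did not overlap by probe 2, and passed the test by neither. *Cxcl16* was highest with LPS, and the inhibitor arrays lay below the untreated arrays without overlap, by a difference that did not pass the test. Against untreated cells, 2 of 4 members were higher with LPS+inhibitor (*Cxcl9* and *Cxcl10*) and 0 lower, where 6.16% of all genes tested were called higher and 8.71% lower. That count fell to 1 of 4 when only these 2 groups were fitted, with replicate number as a block, and without 5 of the 6 arrays in turn. In each case *Cxcl9* probe 1 missed the threshold (adjusted p up to 0.127). The median difference of the members was 2.92.

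**Figure D3:**
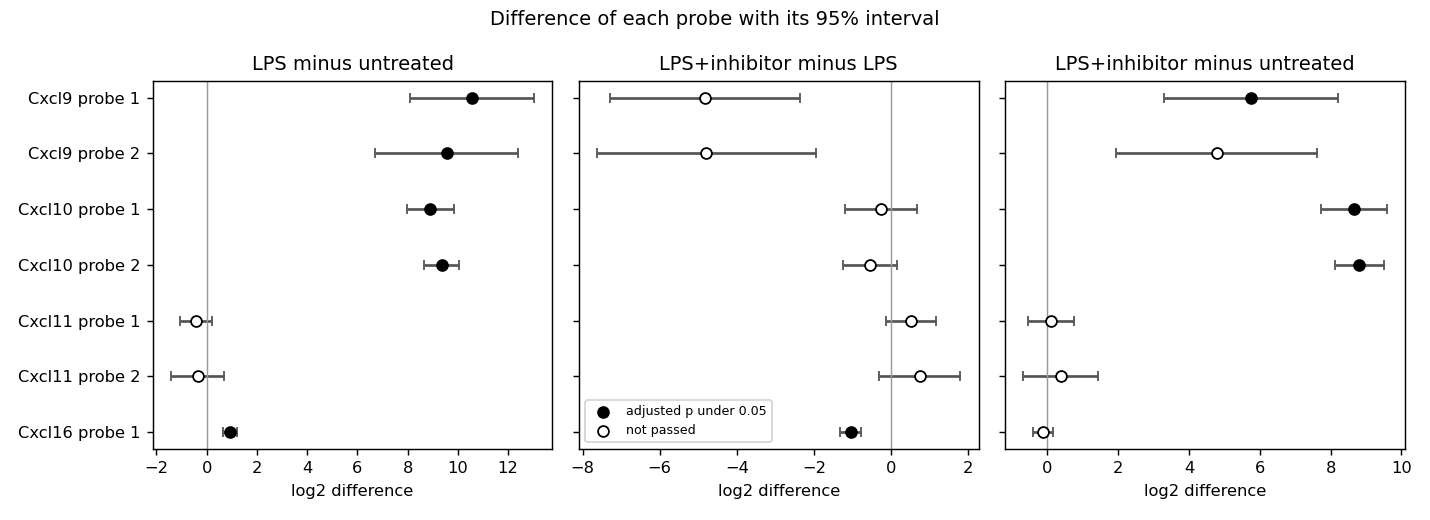
Log2 difference of each probe in the 3 comparisons, with 95% intervals from limma and filled points where the adjusted p was under 0.05. The inhibitor difference is near −5 for both *Cxcl9* probes and near −1 for *Cxcl16*, and the intervals of *Cxcl10* and *Cxcl11* span 0.

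The difference between *Cxcl9* and *Cxcl10* was set out directly, since both genes lie close together on chromosome 5 and rose with LPS. The inhibitor change of *Cxcl9* was 4.57 log2 units lower than that of *Cxcl10* (−4.57), a 23.8-fold difference, and arrays of the LPS and LPS+inhibitor groups did not overlap in it. The exact permutation test over arrays gave a two-sided p of 0.333, which is the smallest that 2 arrays against 2 allow and says nothing on whether the members differ. All 6 pairs of members were compared in each comparison, and this p stayed at 0.333 after adjustment over the pairs. The inhibitor change of *Cxcl9* was also below that of *Cxcl16* by −3.79 and below that of *Cxcl11* by −5.36, and *Cxcl10* and *Cxcl16* differed by 0.78. No exact permutation p is read from these, since that test cannot give less than 0.333 for 2 arrays against 2.

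The neighboring genes were read as well. On chromosome 5, next to the CXCR3 ligands, *Naaa*, *Sdad1*, *Art3*, *Nup54*, and *Scarb2* had inhibitor differences between −0.44 and −0.01. Of these 5, 0 were called, beside 4.27% lower and 5.52% higher of all genes. *Art3* was not above background on any array, so its values say nothing on a change. With LPS, *Nup54*, a nuclear pore protein, rose by 1.44 (adjusted p = 0.0154). It was the only 1 of the 5 that was called, beside 7.98% higher and 12.8% lower of all genes. On chromosome 11, next to *Cxcl16*, 0 of 4 genes were called with the inhibitor, beside 4.27% lower and 5.52% higher of all genes. *Arrb2*, which encodes β-arrestin 2, read 12.48 and 12.16 in untreated cells and 11.45 and 11.41 with LPS, and fell by 0.89 (adjusted p = 0.0189). Of these 4, only *Arrb2* was called with LPS, beside 7.98% higher and 12.8% lower of all genes. *Zmynd15* had an inhibitor difference of −1.04 (standard error 0.29, adjusted p = 0.133), the size of that of *Cxcl16*, with a wider spread. That of *Tm4sf5* was −0.74 (standard error 0.18, adjusted p = 0.0999). The LPS differences were 0.70 for *Zmynd15* (adjusted p = 0.232) and 0.60 for *Tm4sf5* (adjusted p = 0.113). *Med11* and *Arrb2* had inhibitor differences of −0.15 and 0.07.

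The receptors and the enzymes that process these ligands were measured as a list of 7 genes. With LPS, 1 of 7 was called higher and 2 lower, beside 7.98% and 12.8% of all genes. With the inhibitor 0 of 7 were called in either direction, beside 5.52% higher and 4.27% lower of all genes, and counts this small are not set apart from those shares. Without any 1 untreated or LPS array, 0 were called with LPS in either direction, *Cxcr3*, *Adam17*, and *Adam10* included. With the inhibitor, 1 of 7 was lower with normexp, with dim probes left out, and without inhibitor replicate 2. *Cxcr3* itself read 11.23 and 11.85 in unstimulated cells, 9.82 and 10.22 after LPS, and 10.29 and 10.64 after inhibitor plus LPS. It fell with LPS by 1.52 (adjusted p = 0.0402). *Cxcr6*, the receptor of CXCL16, was near the detection limit, between 4.45 and 5.33, and was above background on 2 untreated arrays, 0 LPS arrays, and 1 inhibitor array. *Ackr3*, an atypical receptor that binds CXCL11, was not above background on any array. *Adam17* rose by 1.25 with LPS (adjusted p = 0.0465), and its inhibitor difference was −0.95 (adjusted p = 0.122). *Adam10* fell with LPS by 0.62 (adjusted p = 0.0469), which did not pass with 75th percentile scaling (−0.22, adjusted p = 0.353), and its inhibitor difference was 0.0. *Dpp4*, whose product trims CXCR3 ligands, was above background on 1 LPS array only. *Pf4*, a platelet chemokine that can also bind CXCR3, differed more between replicates than between groups, at 15.97 and 17.21 in unstimulated cells, 15.71 and 16.86 after LPS, and 16.29 and 17.19 after inhibitor plus LPS.

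The route from TLR4 to interferon and from interferon to its target genes was read with 21 genes. With LPS, 10 were called higher and 2 lower, where 7.98% of all genes were called higher and 12.8% lower. With the inhibitor 7 were called lower and 0 higher, against 4.27% and 5.52% of all genes, with a median inhibitor difference of −0.41. *Ifnb1*, the type I interferon made by LPS-stimulated macrophages, read 4.80 and 4.34 in unstimulated cells, 12.01 and 12.85 after LPS, and 12.87 and 12.52 after inhibitor plus LPS. It rose by 7.86 with LPS (adjusted p = 0.00317), and its inhibitor difference was 0.26 (95% interval −0.73 to 1.26, adjusted p = 0.766). *Ifng*, which encodes interferon γ, was not above background on any array, nor was *Ifna4*.

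Of the genes of interferon receptor signaling, *Ifnar1*, a chain of the type I interferon receptor, fell by 0.97 (adjusted p = 0.0397), and *Ifngr2*, a chain of the interferon γ receptor, fell by 0.41 (adjusted p = 0.036). Another probe of *Ifnar1* was called the opposite way for LPS+inhibitor against untreated cells. The partner chains *Ifnar2* (−0.23, adjusted p = 0.435) and *Ifngr1* (−0.64, adjusted p = 0.0829) did not pass. Of the kinases that these receptors use, *Jak1* passed neither with LPS (0.30, adjusted p = 0.137, or 0.74 and 0.0137 with 75th percentile scaling) nor with the inhibitor (−0.25, adjusted p = 0.255), and *Jak2* and *Tyk2* had risen with LPS and fell by 2.24 (adjusted p = 0.0268) and by 1.67 (adjusted p = 0.0121). *Irf8*, an interferon response factor of the macrophage lineage, read 14.17 and 14.11 in unstimulated cells, 15.25 and 15.87 after LPS, and 12.51 and 12.35 after inhibitor plus LPS. It rose by 1.42 with LPS and fell by 3.13 with the inhibitor (adjusted p = 0.0144), to below its untreated level on both arrays. *Irf1* had an inhibitor difference of −0.51 (adjusted p = 0.371), *Irf7* of −1.09 (adjusted p = 0.162), *Stat2* of −0.56 (adjusted p = 0.0943), and *Irf9* of 0.08 (adjusted p = 0.807).

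Upstream, *Ticam2*, an adaptor of TLR4, was not well above background on either inhibitor array and was at least 7.87-fold lower (adjusted p = 0.0183), and *Ikbke*, a kinase of IRF3, fell by 1.64 (adjusted p = 0.0289). *Tlr4* (0.51, adjusted p = 0.124), *Ticam1* (0.71, adjusted p = 0.0566), and *Irf3* (−0.30, adjusted p = 0.35) did not pass. *Usp7*, whose protein and not RNA is the target of the inhibitor, read 11.95 and 11.98 in unstimulated cells, 12.41 and 12.40 after LPS, and 12.11 and 12.43 after inhibitor plus LPS, and was called in neither comparison.

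All 10 genes of the NF-κB list were called higher with LPS (7.98% of all genes), and with the inhibitor 5 of 10 were called lower (4.27% of all genes) and 0 higher (5.52%), with a median inhibitor difference of −0.72. *Rela*, which encodes the p65 subunit, read 14.75 and 14.70 in unstimulated cells, 15.73 and 15.69 after LPS, and 15.14 and 15.19 after inhibitor plus LPS, and fell by 0.54 with the inhibitor (adjusted p = 0.0236). *Nfkb1* fell by 1.45 (adjusted p = 0.0134), *Nfkb2* by 1.44 (adjusted p = 0.0215), *Rel* by 1.11 (adjusted p = 0.0303), and *Ikbkb*, an IκB kinase, by 1.29 (adjusted p = 0.012). *Nfkbia*, the inhibitor IκBα, had a difference of −0.21 (adjusted p = 0.548), close to that of *Cxcl10* by probe 1 (−0.26) but not by probe 2 (−0.55). The LPS count of the interferon list was 16 higher with 75th percentile scaling and 5 to 7 without an untreated or LPS array, and its 2 lower calls were 0 under each of these settings. Under that scaling 12150 of all genes were called higher with LPS, in place of 2775, and the 16 included *Ifng* and *Ifna4*, which were below background. The inhibitor counts of the interferon and NF-κB lists were 0 lower when only the LPS and LPS+inhibitor arrays were fitted or either untreated array was left out. With normexp they were 10 of 21 and 8 of 10 lower, and with dim probes left out 8 of 21 and 7 of 10. Calls over all probes, in either direction, rose under these settings as well. They were 4704 of 55680 as reported, 7022 of 55680 with normexp, and 7059 of 25084 with dim probes left out. Without an LPS array 2 of 21 and 1 of 10 were lower, and without an inhibitor array 4 of 21 and 2 or 3 of 10. Genes of the interferon list called higher with the inhibitor numbered 2 with normexp and 1 with 75th percentile scaling, dim probes left out, a trended prior, or the mean of all probes.

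**Figure D4:**
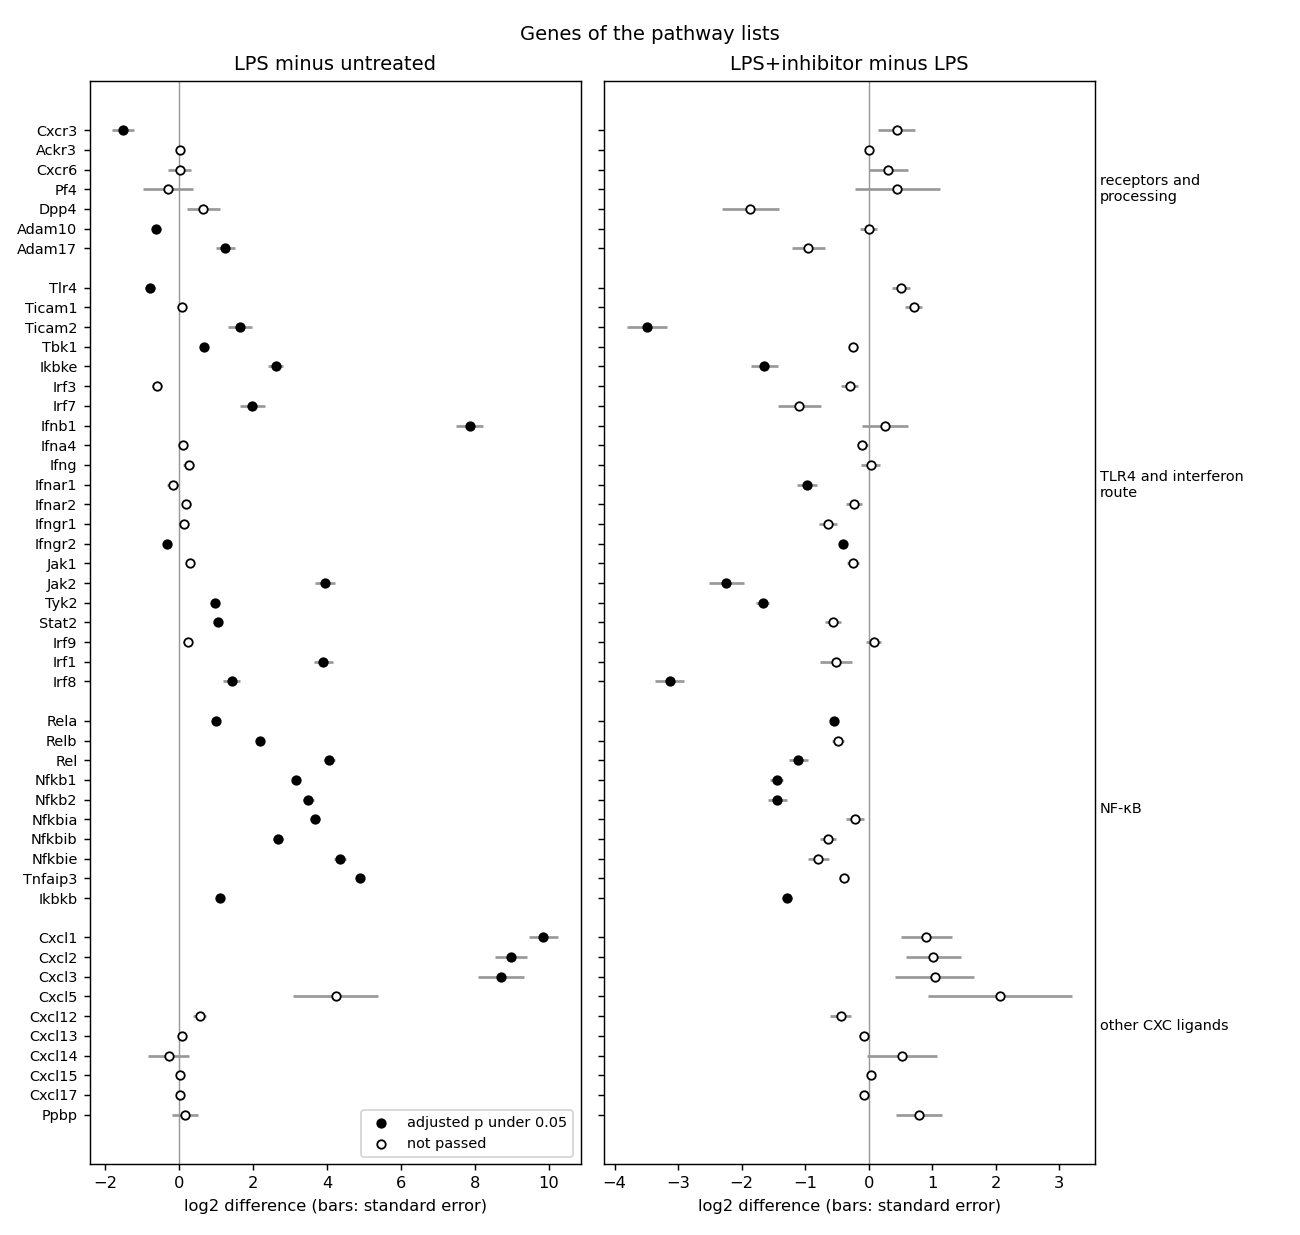
Log2 difference with its standard error for each gene of the 4 pathway lists, LPS minus untreated on the left and LPS+inhibitor minus LPS on the right, with filled points where the adjusted p was under 0.05. With the inhibitor 7 of 21 genes of the TLR4 and interferon route and 5 of 10 NF-κB genes are lower, and 0 of the 10 other CXC ligands and 0 of the 7 receptor and processing genes are called.

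The other CXC ligands give the setting within the family. Of 10 genes, 3 were called higher with LPS (7.98% of all genes). With 75th percentile scaling, which moves the median of all probes up by 0.51, 8 of 10 were called higher. Under that scaling 12150 of all genes were called higher with LPS, in place of 2775. With the inhibitor 0 of 10 were called in either direction (5.52% of all genes higher and 4.27% lower), or 2 higher with normexp. Under normexp 7022 of 55680 probes were called in either direction with the inhibitor, in place of 4704. *Cxcl1*, a neutrophil chemokine that acts through CXCR2, read 4.57 and 3.59 in unstimulated cells, 13.77 and 14.12 after LPS, and 14.64 and 15.08 after inhibitor plus LPS. *Cxcl2* and *Cxcl3*, which act on the same receptor, had the same order of groups. The inhibitor differences were 0.91 for *Cxcl1* (adjusted p = 0.307), 1.02 for *Cxcl2* (adjusted p = 0.286), and 1.04 for *Cxcl3* (adjusted p = 0.483), and none passed. *Cxcl5* read 6.62 and 8.63 with LPS and 8.51 and 10.87 with LPS+inhibitor (log2 difference 2.07, adjusted p = 0.437). *Cxcl12*, *Cxcl13*, *Cxcl15*, and *Cxcl17* were not above background on any array, and they were among the genes called higher with LPS under 75th percentile scaling.

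The genes whose profile over the 6 arrays was most like that of each member were found among 18068 probes, by the root mean square difference of mean-centered log2 values. *Cxcl9* was closest to *Il1b* (0.45), which encodes interleukin 1β, *Edn1* (0.49), which encodes endothelin 1, and *Adamts4* (0.75), a protease gene. *Edn1*, with inhibitor arrays at 7.68 and 8.89 against 12.59 and 12.84 with LPS, was called lower (log2 difference −4.43, standard error 0.44, adjusted p = 0.02). *Il1b* (−3.82, adjusted p = 0.0607) and *Adamts4* (−3.32, adjusted p = 0.0954) did not pass. *Cxcl10* was closest to *Acod1* (0.20), which encodes the enzyme that makes itaconate, *Ptgs2* (0.57), a cyclooxygenase gene, and *Ifnb1* (0.57). *Acod1* read 18.18 and 18.12 with LPS and 17.37 and 17.78 with LPS+inhibitor.

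*Cxcl16* was closest to *Gsdmd* (0.055), the pore-forming gasdermin D of pyroptosis, and to *Tnfrsf14* (0.067), a TNF receptor family gene. Both were called higher with LPS and lower with the inhibitor. *Gsdmd* read 12.50 and 12.28 in unstimulated cells, 13.41 and 13.11 after LPS, and 12.32 and 12.23 after inhibitor plus LPS. *Cxcl11* was closest to *Gla* (0.058), *Hccs* (0.067), and *Ap5z1* (0.071), of which 0 were called with LPS or with the inhibitor, and 0 of these 3 probes shared a 16-base run with *Cxcl11* probe 1. These measures describe 6 arrays that share 1 slide, and the choice by likeness gives no test.

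Markers were read for the cells that a marrow culture could hold. All 8 macrophage markers, *Adgre1*, *Csf1r*, *Cd68*, *Itgam*, *Lyz2*, *Mertk*, *Fcgr1*, and *Cd14*, were above background on all arrays, and their summed log2 signal was 19.46 to 19.48 in unstimulated cells, 19.46 to 19.51 after LPS, and 19.16 to 19.26 after inhibitor plus LPS. With the inhibitor 2 of 8 were called lower and 0 higher, where 4.27% of all genes tested were called lower and 5.52% higher. The 2 were *Fcgr1*, an IgG receptor gene (−1.60, adjusted p = 0.0317), and *Cd14*, the LPS co-receptor gene (−1.31, adjusted p = 0.0184). NK cell markers were above background on all arrays for 0 of 4 genes, and *Gzma* and *Eomes* on none. T cell markers were above it for 2 of 5 (*Cd3e* and *Cd2*), and *Cd3g* and *Cd8a* on none. The summed log2 signal of the T cell markers was 9.25 to 9.47 in unstimulated cells, 9.29 to 9.54 after LPS, and 9.47 to 9.66 after inhibitor plus LPS. For NK cell markers it was 5.38 to 5.86, 5.88 to 7.73, and 5.43 to 6.42 in the same order.

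Fibroblast markers were above background on all arrays for 0 of 4 genes, and *Col1a1*, *Col3a1*, and *Pdgfra* on none, with sums of 5.38 to 5.53 in unstimulated cells, 5.88 to 6.46 after LPS, and 5.54 to 6.21 after inhibitor plus LPS. Endothelial markers were above it for 1 of 4 (*Kdr*), and *Tek* on none, with sums of 12.39 to 12.81, 12.60 to 12.81, and 12.80 to 13.26. Neutrophil markers were above it for 3 of 4 (*Ly6g*, *S100a8*, and *Camp*), with sums of 10.71 to 10.75, 11.31 to 11.78, and 11.15 to 11.40. B cell markers were above it for 1 of 4 (*Cd79a*), with sums of 6.10 to 7.89, 6.97 to 9.05, and 6.75 to 8.40. *Pax5*, a B cell transcription factor gene, was above background on the 2 inhibitor arrays only and was called higher with the inhibitor (4.03 and 3.90 with LPS against 4.86 and 5.07, adjusted p = 0.0244), while the other 3 B cell markers had differences below 0 that did not pass. The part of these cells in the chemokine signals was not tested.

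**Figure D5:**
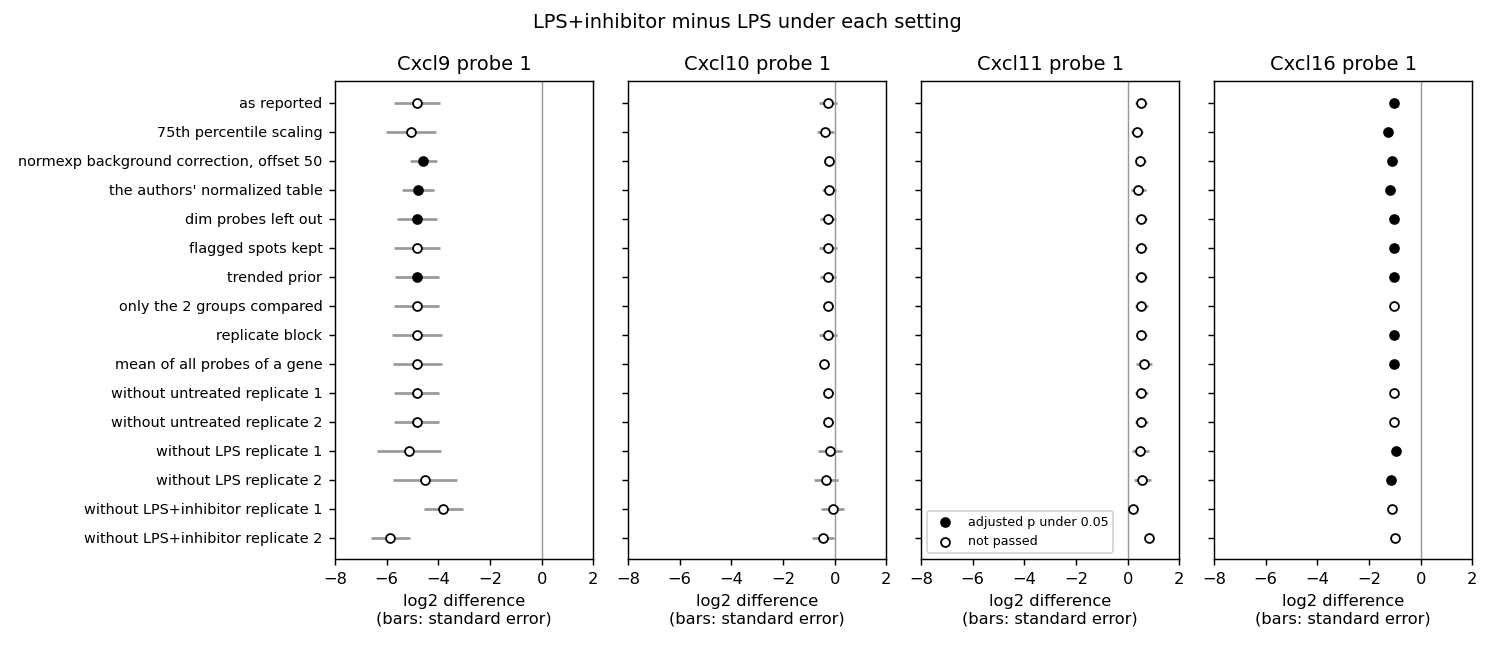
LPS+inhibitor minus LPS on the log2 scale for probe 1 of each member, with its standard error, as reported and under 15 other settings, with filled points where the adjusted p was under 0.05. *Cxcl9* stays between −5.86 and −3.81, *Cxcl16* stays between −1.28 and −0.94, and the call of either gene depends on the setting.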

How the data were processed

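RNA from 6 BMDM cultures was measured on one-color Agilent mouse 8x60K arrays. The scanner files that the authors deposited hold spot intensity values background-corrected by Agilent Feature Extraction 10.7.3.1 per the file headers, and a further deposited table holds normalized log2 values. The table equals, up to a median difference of 0.00993 (r = 0.999972), log2 values made by normexp on the median signal and quantile normalization. It was used as an alternative. The methods name limma, quantile normalization, and an adjusted p of 0.05.

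Here log2 of the processed signal was quantile-normalized over spots other than controls, spots flagged as outliers (119 to 172 per array) were left out, and spots of a probe were averaged. A linear model with eBayes (limma 3.58.1, R 4.3.3) was fitted to all 3 groups, with 3 residual and 1.05 prior degrees of freedom and Benjamini-Hochberg adjustment over 55680 probes. Of several probes, the 1 with the highest mean signal stood for a gene. Of 55681 probes, 31220 were named through RefSeq and the others by the file. All of the LPS and inhibitor calls named for the pathway lists came from the brightest probe, and 0 were called the opposite way by another probe of the gene in these 2 comparisons. Probe positions are those of the files (mm9), and no annotation of that build was used here. For a group in which neither array had the probe well above background, an at-least fold was computed. It was taken against the lowest signal of any probe well above background on each array, which is not a limit set for that probe. The genes named are all probes of the members, the lists of receptors, signaling genes, and CXC ligands, the neighbors, and the 3 genes most like each member. Some genes that this rule names are not reported here. The members and lists were chosen with earlier results of these data known. Alternatives were 75th percentile scaling, normexp with an offset of 50, the deposited table, dim probes left out, fits of only 2 groups, a trended prior, flagged spots kept, a replicate block, the mean of all probes, a minimum log2 difference of 1, and leaving out each array.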

Additional observations from a re-analysis of the deposited data

How the results depend on the processing

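Of 327 values of the 7 probes under the alternatives, 292 kept their direction and their side of the threshold. With 75th percentile scaling all probes shifted by a median of 0.51 (LPS) and 0.55 (LPS+inhibitor) against untreated cells, and calls with LPS changed from 2775 higher and 4443 lower to 12150 and 4048 (38.4% and 75% higher), and those of LPS+inhibitor against untreated cells from 2144 and 3031 to 12182 and 3354. Under it the LPS difference of *Cxcl11* probe 1 turned to 0.14 and that of *Cxcl16* between LPS+inhibitor and untreated cells to 0.11. Less the shift these were −0.36 and −0.44, and the LPS difference of *Cxcl16* was 0.88. With an array left out, the *Cxcl11* difference of LPS+inhibitor against untreated cells ranged from −0.21 to 0.41 (probe 1) and from −0.14 to 0.90 (probe 2), and both lowest values were those without inhibitor replicate 1. The median LPS difference of the 4 members was 5.27 with that scaling, 4.22 with normexp, and 4.68 to 5.15 with an array left out. Their median of LPS+inhibitor against untreated cells was 1.5 with normexp.

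Members called lower with the inhibitor numbered 2 with normexp, with the authors' table, with dim probes left out, and with a trended prior, 0 with only the 2 groups fitted, and 0 to 1 with an array left out. Those higher with LPS+inhibitor than in untreated cells numbered 1 with only the 2 groups fitted and 1 to 2 with an array left out. Those higher with LPS numbered 2 to 3 with an array left out. For LPS+inhibitor against LPS, limma called 0 probes of 55680 with only the 2 groups or without untreated replicate 2, and 0 of 55675 without untreated replicate 1, although 11257, 11257, and 11256 were at an unadjusted p under 0.05. Without 1 array, its group is assumed to vary like the others. Over all probes, calls of LPS+inhibitor against LPS in either direction were 4704 of 55680 as reported. They were 7022 of 55680 with normexp and 3532 of 55681 with the authors' table. With dim probes left out they were 7059 of 25084, and with a trended prior 4803 of 55680. Member counts under these settings are to be read beside these totals. *Cxcl9* probe 2 lost its LPS call without untreated replicate 2 (adjusted p = 0.0568), LPS replicate 1 (0.058), or LPS replicate 2 (0.0571).

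Arrays with the same replicate number deviated together (r = 0.47, 0.40, and 0.42 over 20705 probes), but the labels do not say what the number marks, and there are only 2. On the slide, replicate 1 of every group lay in column 1 and replicate 2 in column 2, so replicate number and slide column cannot be told apart. With the replicate block, 1 member was higher with LPS+inhibitor than in untreated cells (*Cxcl9* adjusted p = 0.0595), inhibitor calls changed from 4704 to 3544 probes, and those of the interferon and NF-κB lists from 7 and 5 lower to 5 and 3. Of the receptor and processing list, the block left 0 higher and 1 lower with LPS and gave 1 lower with the inhibitor. For the other settings that changed a call or a list count, the cause was not tested. For probes below background in a group the log2 differences are fitted values, not measured changes.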
